A study of Drosophila melanogaster with 9 samples.

Results

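The genes described here are the non-coding RNA genes of Drosophila melanogaster that were measured above a low level in the larval wing disc. They were chosen as the genes whose symbol is CR followed by digits, a FlyBase code for annotated genes without a protein product, and whose mean over all 9 libraries was at least 5 CPM (counts per 1e6 counts over all genes of the library). The rule found 84 genes among 1347 CR genes and 17471 genes in all. A further 1263 CR genes lay below the level, and 301 of these still passed the filter on low counts. All libraries came from larvae with the ubiquitous tubulin-GAL4 driver and temperature-sensitive GAL80, which holds the driver off in the cool, so that GAL4 acted for 3 days before discs were collected. The 3 control libraries had the genotype tsGAL80;tubG4/+ (stocks BL7019, BL5138 and BL39831), the 3 Psi RNAi libraries tsGAL80;tubG4/Psi RNAi (BL7019, BL5138 and V105135) and the 3 Myc RNAi libraries tsGAL80;tubG4/Myc RNAi (BL7019, BL5138 and V2947). The count data of the controls carry the name of a white mutant strain instead. Larvae were kept at 18 °C for 4 days and then, per the labels, at 25 °C for 3 days, and each library pooled 60 discs in lots of 20. The sources differ on the larval stage (wandering or mid-third instar) and on the second temperature. Each hairpin came from 1 stock, so the knockdown and the genetic background of that stock cannot be told apart. In RNA from whole discs, fewer cells of a type and less RNA per cell cannot be told apart either.

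Long non-coding RNAs are transcribed and often spliced and polyadenylated as messenger RNAs are, but encode no known protein. Some act at the site of their transcription, some serve as precursors of small RNAs, and for most fly loci no function is known. Antisense RNAs are read from the strand opposite to a gene, and pseudogenes are copies of genes that have lost the ability to encode a working protein. Psi is a KH-domain protein that binds RNA and single-stranded nucleic acid, and Myc is the transcription factor that drives ribosome production and growth in the wing disc.

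By their annotated type the 84 genes were 39 long non-coding RNAs, 26 antisense RNAs, 17 pseudogenes and 2 hairpin RNAs, which are precursors of small interfering RNAs. On the Release 6 assembly, to which all positions refer, the X chromosome and 2R held 21 genes each, 3L held 16, 3R 12, 2L 11 and the fourth chromosome 3. Only 3 genes were above 100 CPM, while 38 lay from 10 to 100 CPM and 43 from 5 to 10 CPM, with a median of 9.79 CPM. The median was 10.6 CPM for the long non-coding RNAs, 8.85 CPM for the antisense RNAs and 12.5 CPM for the pseudogenes. Among the 83 genes with exons in the annotation, the median length of exons was 1535 bases (214 to 9247), and 23 had a single exon. Per kilobase of exon, the median level in the controls was 6.77 CPM (0.357 to 724), and by type it was 8.37 CPM for the long non-coding RNAs, 5.03 CPM for the antisense RNAs and 6.76 CPM for the pseudogenes. The lowest count of any of the 84 genes in any library was 11, and all 84 passed the filter on low counts. In the controls alone 73 genes reached 5 CPM, and 65 did so in each of the 3 groups. The remaining genes include 5 that reached it in 1 group only, which were CR46123 in the controls, CR45923 and CR44955 in Psi RNAi, and CR45973 and CR46263 in Myc RNAi. A gene that passed only through its high group had to differ between groups, so counts are given below for the 65 genes as well. Just inside the limit were CR44906 (5.04 CPM), CR44955 (5.13 CPM) and CR46263 (5.13 CPM). Just outside it were CR43257 (4.9996 CPM), CR46107 (4.88 CPM) and CR43051 (4.88 CPM).

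**Figure D1:**
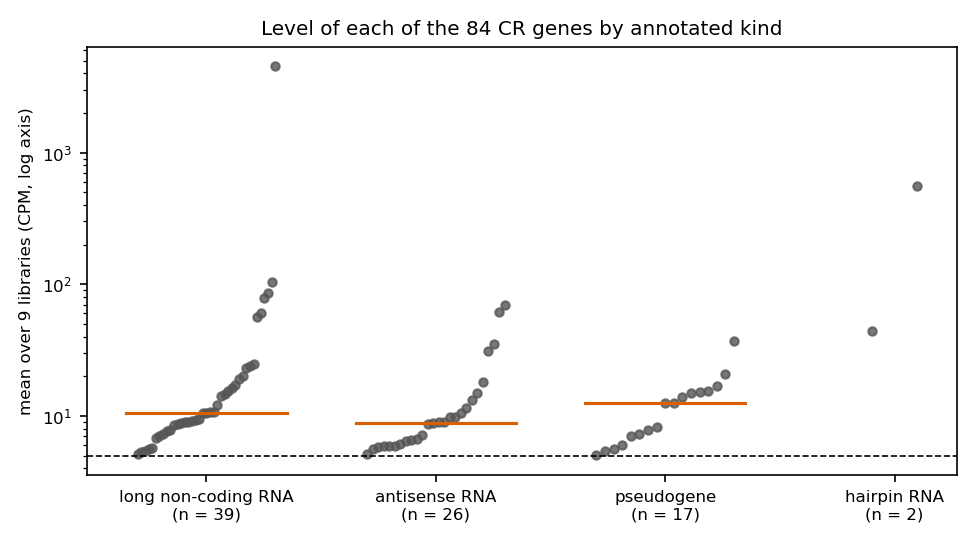
Mean level of each of the 84 CR genes over the 9 libraries (CPM, log axis) by annotated type, with 1 point a gene and the 5 CPM limit as a dashed line. The medians are 10.6, 8.85 and 12.5 CPM for long non-coding RNAs, antisense RNAs and pseudogenes, the 2 hairpin RNAs lie at 44.1 and 558 CPM, and 3 genes lie above 100 CPM.

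The libraries held 26287040 to 34401160 counted read pairs, and TMM, a scaling for the composition of a library, gave factors of 0.96 to 0.97 for control and Psi RNAi and 1.06 to 1.08 for Myc RNAi. All levels below are TMM-scaled CPM, log2 fold changes are given with their standard error, and the threshold for a call was 0.01 on the p of edgeR, adjusted over 9235 genes, with 3 libraries in each group. Psi was at 335, 322 and 323 CPM in control discs and 74.7, 65.7 and 61.7 CPM in Psi KD discs (log2 fold change -2.28 ± 0.08). Myc was at 150, 147 and 139 CPM in control discs and 132, 109 and 103 CPM in Myc KD discs, and its difference of -0.34 ± 0.09 on the log2 scale was not called (edgeR adjusted p = 0.0146). In Psi RNAi, Myc was at 107, 118 and 108 CPM, below every control (log2 fold change -0.39 ± 0.09, adjusted p = 0.0214, not called). The study, which used DESeq2, reports Myc as significantly reduced in Psi KD. The edgeR fit used here makes fewer calls in Psi KD than DESeq2 does (376 against 873 over all genes). All 22 wing disc markers were detected in every library and summed to 6642 to 6805 CPM in control discs, 5916 to 6468 CPM in Psi KD discs and 6539 to 6917 CPM in Myc KD discs, so that Psi RNAi lay below every control. Of these, Ance went from a mean of 1284 CPM in control discs to 676 CPM in Psi KD discs and 823 CPM in Myc KD discs, and was called lower in both (log2 fold change -0.93 ± 0.05 and -0.64 ± 0.05). The wing disc sums include Ance, the marker of highest level in control discs and the only one called in Psi KD. Without Ance the sums of Psi RNAi and control did not separate. Psi RNAi 1 then lay below every control, and Psi RNAi 2 and Psi RNAi 3 lay above every control. In Myc KD, zfh2 (0.38 ± 0.06) and hh (0.23 ± 0.05) were called higher, and no wing disc marker but Ance was called lower. The 10 haemocyte markers summed to 526 to 961, 353 to 474 and 415 to 706 CPM in the same order, again with Psi RNAi below every control. None of the 10 was at 0 in any library, and none was called. In Psi RNAi Hml, Pxn, vkg, Cg25C and Sr-CI lay below every control, while NimC1, He, srp, eater and crq overlapped with the controls. Cg25C, the haemocyte marker of highest level in control discs, is also among the fat body markers. Markers of the fat body, a tissue that adheres to dissected discs, summed to 953 to 11584 CPM in control discs, 443 to 7058 CPM in Psi KD discs and 1055 to 2769 CPM in Myc KD discs, with control 1 and Psi RNAi 1 highest. The sum over salivary gland and gut markers was 1821 CPM in Psi RNAi 1, 506 CPM in Myc RNAi 3 and at most 40.1 CPM elsewhere. The roX RNAs, made in male cells, summed to 224 to 1021 CPM, with overlap between the groups. What part these differences between libraries had in the results was not tested.

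In Psi knockdown (KD) wing discs, 11 of the 84 CR genes rose and 8 fell compared with control. This was 22.6% of them, beside 4.07% of all genes tested (1.80% higher and 2.27% lower) and 4.16% of all genes of at least 5 CPM (1.63% and 2.53%). Among the 65 genes that reached 5 CPM in each group, 7 rose and 5 fell. By type, 7 of 39 long non-coding RNAs rose and 4 fell, 4 of 26 antisense RNAs rose and 1 fell, and 3 of 17 pseudogenes fell and none rose. The median log2 fold change of the 84 genes was 0.08, against -0.01 over all genes tested, and single genes ran from -2.10 to 4.79. The libraries of both groups did not overlap for 50 of the 84 genes (59.5%), beside 32.8% of all genes tested. Without control 2 or Psi RNAi 2 the count was 10, without control 1, control 3 or Psi RNAi 1 it was 11, and without control 1 and Psi RNAi 1 together it was 5 (CR43087, CR44042, CR44807, CR45139 and CR45923). Over all genes tested the calls also fell, from 376 to 177 without control 2 and 150 without Psi RNAi 2. They were 82 without control 1 and Psi RNAi 1 together.

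The rise of largest fold was that of CR45923 (2R, 4621118 to 4622481, minus strand, 3 exons), a long non-coding RNA also named dntRL. It was at 0.574, 0.632 and 0.420 CPM in control discs, 13.9, 15.9 and 15.7 CPM in Psi KD discs and 1.27, 1.10 and 0.814 CPM in Myc KD discs. The Psi RNAi libraries stood far above all others, and the Myc RNAi libraries lay just above the controls without overlap. As CR45923 reached 5 CPM in Psi RNAi only, it had to differ between groups to be chosen, which limits what its p-values show. In Psi KD the log2 fold change was 4.79 ± 0.23 (edgeR adjusted p = 6.25e-06), a 27.7-fold rise, and it was called under every alternative. In Myc KD it was 0.96 ± 0.21 (adjusted p = 0.00755), a call that was lost without control 1, 2 or 3, without each Psi RNAi library and without Myc RNAi 1 or 2, with adjusted p up to 0.0715. Its neighbour CG17486 ends 284 bases away on the plus strand, so that both genes are read towards each other. CG17486 was at 71.7, 71.0 and 68.4 CPM in control discs and 102, 106 and 107 CPM in Psi KD discs, and rose by 0.57 ± 0.04 on the log2 scale (adjusted p = 9.02e-05). On the other side the nearest gene, CG17883, lies 49371 bases away and was not called.

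Among the other rises in Psi KD, CR46029 is an antisense RNA of 1 exon across Gyc-89Da and Gyc-89Db, genes of atypical guanylyl cyclases. It was at 2.96, 2.53 and 2.67 CPM in control discs and 9.39, 8.95 and 7.32 CPM in Psi KD discs (log2 fold change 1.65 ± 0.24, edgeR adjusted p = 0.00289). The groups did not overlap, while leaving out a control, Psi RNAi 1 or Psi RNAi 2 took the adjusted p to as much as 0.0344. CR46029 was below 5 CPM in every control and met the limit through the knockdowns. It thus had to differ between groups to be chosen. CR44677 (3L, 19555533 to 19557202) and CR45916 (3L, 19562636 to 19566533) lie 5433 bases apart on opposite strands. CR44677 was at 6.14, 4.11 and 4.65 CPM in control discs and 15.1, 11.2 and 16.0 CPM in Psi KD discs (log2 fold change 1.51 ± 0.23, edgeR adjusted p = 0.00434, up to 0.0251 over the alternatives). That call was lost without control 2, control 3, Psi RNAi 1 or Psi RNAi 3. CR45916, whose exon holds the microRNA gene mir-9a, was at 7.04, 7.81 and 6.98 CPM in control discs, 13.7, 13.5 and 18.1 CPM in Psi KD discs and 6.79, 6.56 and 6.05 CPM in Myc KD discs. It rose in Psi KD by 1.05 ± 0.13 on the log2 scale (edgeR adjusted p = 0.00125) and was not called in Myc KD (log2 fold change -0.17 ± 0.13). mir-9a restrains the number of sensory organ precursors in the wing disc, and the poly(A) libraries do not measure the mature microRNA. Of the genes next to the pair, CR44676, which lies between them (log2 fold change 0.30), Shal (-0.19) and CG9300 (-0.02) were not called in Psi KD.

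CR40469, a single exon of 214 bases near the end of the X chromosome (122493 to 122706), was at 9.98, 13.7 and 13.5 CPM in control discs and 23.7, 38.4 and 27.1 CPM in Psi KD discs (log2 fold change 1.26 ± 0.22, edgeR adjusted p = 0.00919). The groups did not overlap, but the call was lost without any 1 of the 9 libraries, with adjusted p up to 0.0346. Its neighbour CG17636, 1663 bases away, was at 0.191 CPM or less in every control library and at 19.2, 0.106 and 0.146 CPM in Psi KD discs, so that its log2 fold change of 5.55 ± 2.09 (adjusted p = 0.142) came from Psi RNAi 1 alone. CR40469 itself was lowest in Psi RNAi 1 among the Psi RNAi libraries.

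The fall of largest fold in Psi KD was that of CR46123 (3R, 1366234 to 1366601, minus strand), a single exon within an intron of Myo81F, a myosin heavy chain gene on the opposite strand that had too few counts to test. CR46123 was at 16.4, 15.4 and 17.3 CPM in control discs, 3.92, 2.54 and 4.95 CPM in Psi KD discs and 1.97, 1.20 and 1.45 CPM in Myc KD discs. No group overlapped another, and the order was control, Psi RNAi, Myc RNAi. The log2 fold change was -2.10 ± 0.25 in Psi KD (edgeR adjusted p = 0.0011) and -3.40 ± 0.27 in Myc KD (adjusted p = 9.42e-06), and CR46123 was the only gene of the 84 that fell in both. It reached 5 CPM in the controls only, so it had to differ between groups to be chosen. The nearest genes that do not overlap it lie 334879 and 498506 bases away.

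In Psi KD, but not in Myc KD, 3 further genes were called lower. CR45732 (3L, 19439927 to 19441195) was at 12.8, 10.4 and 11.1 CPM in control discs, 4.79, 4.83 and 6.27 CPM in Psi KD discs and 11.1, 7.56 and 12.2 CPM in Myc KD discs. Its log2 fold change in Psi KD was -1.11 ± 0.19 (edgeR adjusted p = 0.00683, up to 0.0808 over the alternatives), and Psi RNAi also lay below Myc RNAi (-0.96 ± 0.19, adjusted p = 0.00372, up to 0.02). The pseudogene CR43670 fell by 0.67 ± 0.09 on the log2 scale (adjusted p = 0.00239, up to 0.0337), from 13.2 to 16.0 CPM in control discs to 8.46 to 9.65 CPM. CR42549, which shares exon bases on the same strand with mura, a gene involved in memory, fell by 0.35 ± 0.06 (adjusted p = 0.00891, and 0.0942 under the alternative furthest from it), whereas mura was not called (-0.11 ± 0.07). Where exons are shared on a strand, read pairs that match both genes are counted for neither, so the level of each is uncertain.

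In Myc KD wing discs, 27 of the 84 CR genes rose and 4 fell compared with control. This was 36.9% of them, beside 19.0% of all genes tested and 22.7% of genes of at least 5 CPM (8.70% higher and 14.0% lower). The rises were 32.1% of the 84 genes, where 7.60% of all genes tested rose, and the falls 4.76%, where 11.4% of all genes fell. Among the 65 genes that reached 5 CPM in each group, 19 rose and 2 fell. By type, 11 of 26 antisense RNAs rose and none fell, 11 of 39 long non-coding RNAs rose and 3 fell, and 5 of 17 pseudogenes rose and 1 fell. The median log2 fold change was 0.32, against -0.03 over all genes tested. With scaling by total counts, which moves the median of all genes by 0.15 in this comparison, 40 genes were called in place of 31. Without control 2 the count was 20. Over all genes tested the calls moved likewise, from 1754 to 2732 with total counts and to 1277 without control 2. The groups did not overlap for 52 of the 84 genes (61.9%), beside 46.1% of all genes tested. Myc RNAi libraries also had the highest share of read pairs with several alignments (12.3% to 15.8%, against 9.52% to 11.5% in the others), and these pairs are not in the counts. What part this had in the results was not tested.

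**Figure D2:**
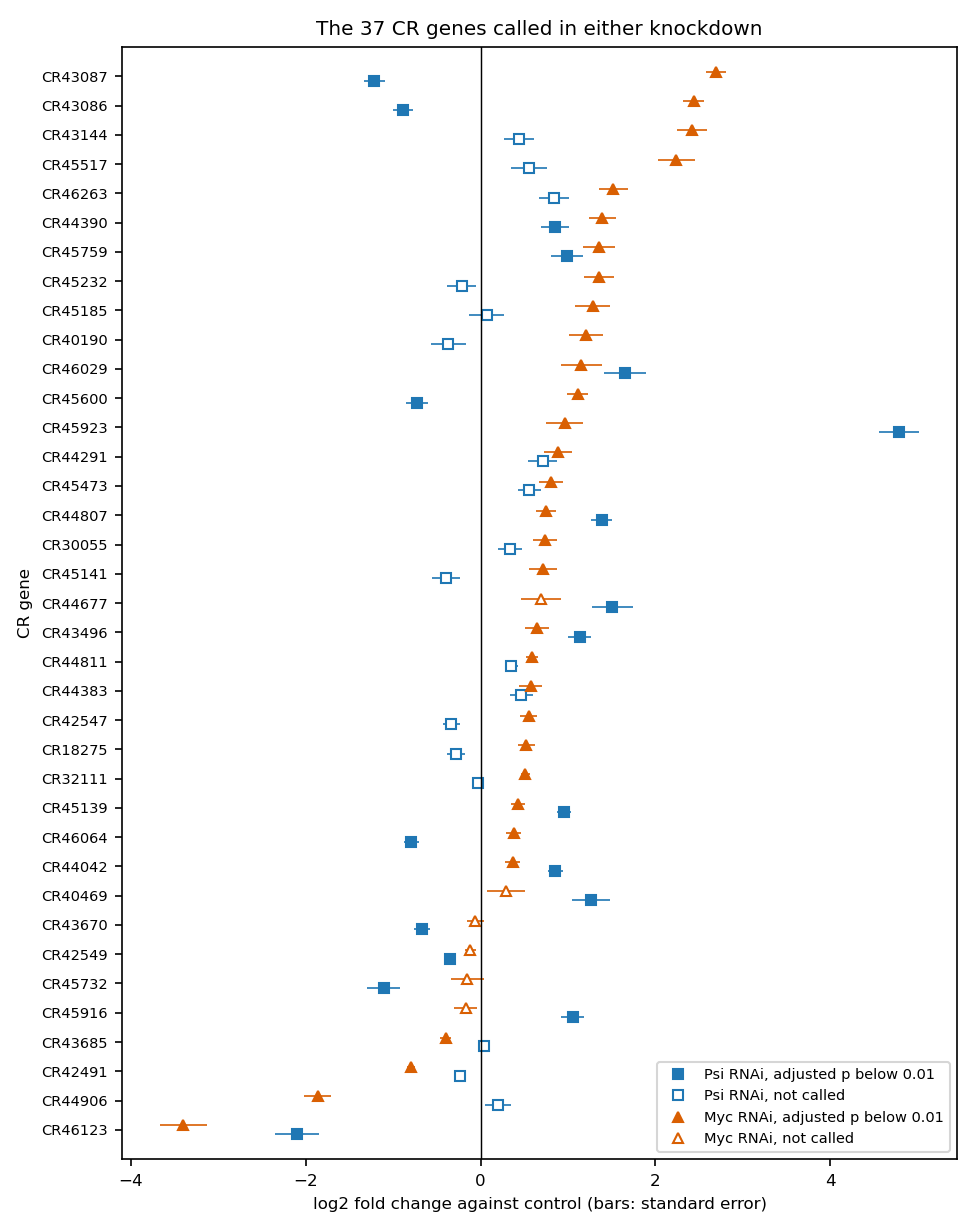
Log2 fold change against control (x axis, with its standard error) for the 37 CR genes (y axis) called in either knockdown, in Psi RNAi and in Myc RNAi, ordered by the value in Myc RNAi. Most genes lie right of 0 in Myc RNAi (27 called higher and 4 lower), CR45923 stands apart at 4.79 in Psi RNAi, and CR46123 lies lowest in both.

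The 2 rises of largest fold in Myc KD were those of neighbouring pseudogenes on the same strand of 3L, which were lower than control in Psi KD. CR43086 (17868740 to 17870573) was at 8.89, 8.85 and 7.97 CPM in control discs, 4.93, 4.26 and 4.70 CPM in Psi KD discs and 55.3, 40.8 and 43.4 CPM in Myc KD discs. CR43087 (17874715 to 17876573), 4141 bases further on, was at 5.35, 6.16 and 5.30 CPM in control discs, 2.52, 2.08 and 2.62 CPM in Psi KD discs and 40.7, 33.5 and 34.6 CPM in Myc KD discs. For both genes all 3 groups were apart, with Psi RNAi lowest and Myc RNAi highest. The log2 fold changes of CR43086 were -0.89 ± 0.12 in Psi KD (edgeR adjusted p = 0.00211, up to 0.0295 over the alternatives) and 2.44 ± 0.12 in Myc KD (adjusted p = 3.55e-07). Those of CR43087 were -1.22 ± 0.12 (adjusted p = 0.000413) and 2.69 ± 0.12 (adjusted p = 2.08e-07), and both of its calls held under every alternative. CR43087 lay near 5 CPM in the controls and below it in Psi RNAi, and met the limit through Myc RNAi. It thus had to differ between groups to be chosen, which limits what its p-values and their stability show. The protein-coding genes on either side also rose in Myc KD. CG34002, 8257 bases before CR43086, was at 0.484, 0.60 and 0.381 CPM in control discs and 4.56, 6.33 and 4.28 CPM in Myc KD discs (log2 fold change 3.36 ± 0.31, adjusted p = 2.91e-05), with -1.09 ± 0.32 in Psi KD (adjusted p = 0.0594). CG7408, 2522 bases after CR43087, rose by 0.98 ± 0.18 in Myc KD (adjusted p = 0.00244) and had a log2 fold change of 0.22 ± 0.18 in Psi KD.

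Opposite calls in the knockdowns, lower in Psi KD and higher in Myc KD, were made for 2 further genes, and none of the 84 genes was called the other way round. CR45600 (3R, 15136985 to 15140121) is annotated as antisense to CG3984 and CG3987 and shares exon bases on its own strand with CG6912. It was at 48.7, 51.0 and 42.8 CPM in control discs, 27.2, 25.6 and 33.3 CPM in Psi KD discs and 116, 91.1 and 100.4 CPM in Myc KD discs. Its log2 fold change was -0.73 ± 0.12 in Psi KD (edgeR adjusted p = 0.00683, up to 0.0914 over the alternatives) and 1.11 ± 0.12 in Myc KD (adjusted p = 0.00013). CG6912 had values of -0.53 ± 0.10 (adjusted p = 0.0122, not called) and 1.15 ± 0.10 (adjusted p = 2.51e-05). CR46064 (2R, 4782892 to 4785543) was at 25.9, 25.6 and 25.0 CPM in control discs, 15.2, 16.3 and 12.6 CPM in Psi KD discs and 33.6, 33.2 and 32.7 CPM in Myc KD discs, again with no overlap. It fell by 0.79 ± 0.09 in Psi KD (adjusted p = 0.000674) and rose by 0.38 ± 0.08 in Myc KD (adjusted p = 0.00793, up to 0.0296). CR43281, on the opposite strand across CR46064, had log2 fold changes of 1.18 ± 0.25 and 0.70 ± 0.24, neither called.

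**Figure D3:**
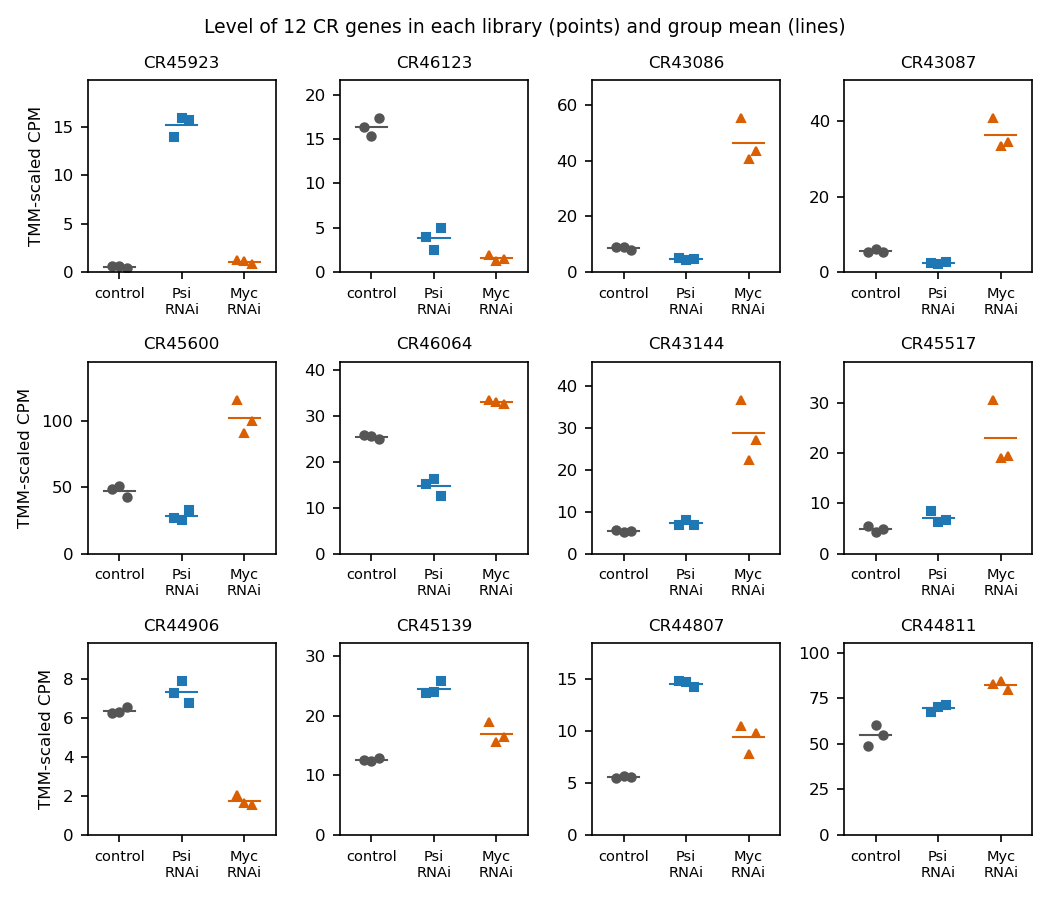
TMM-scaled CPM (y axis, from 0, with its own range in each panel) of 12 CR genes in each of the 3 control, 3 Psi RNAi and 3 Myc RNAi libraries, as points, with the group mean as a line. CR45923 is high in Psi RNAi alone (13.9 to 15.9 CPM), CR43086 and CR43087 are high in Myc RNAi (33.5 to 55.3 CPM), and CR46123 is high in the controls (15.4 to 17.3 CPM).

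Long non-coding RNAs beside rising protein-coding genes were next in size in Myc KD. CR43144 (2L, 21657625 to 21658249) was at 5.68, 5.06 and 5.30 CPM in control discs, 6.87, 8.07 and 6.78 CPM in Psi KD discs and 36.6, 22.2 and 27.0 CPM in Myc KD discs. Myc RNAi stood above both other groups, and the difference on the log2 scale was 2.42 ± 0.17 (edgeR adjusted p = 5.47e-06), and Psi KD was not called (0.44 ± 0.17, adjusted p = 0.133). Cul2, a cullin scaffold of ubiquitin ligases that starts 485 bases downstream on the same strand, went from 138, 146 and 147 CPM to 321, 236 and 265 CPM in Myc KD discs (log2 fold change 0.93 ± 0.10, adjusted p = 8.96e-05). CR45517 (X, 5428483 to 5429256) was at 5.50, 4.23 and 4.96 CPM in control discs, 8.53, 6.27 and 6.74 CPM in Psi KD discs and 30.7, 19.1 and 19.5 CPM in Myc KD discs. It rose in Myc KD by 2.24 ± 0.21 (adjusted p = 4.47e-05) and was not called in Psi KD (0.55 ± 0.21, adjusted p = 0.125). CG15784, 314 bases downstream on the same strand, rose by 2.31 ± 0.10 in Myc KD (adjusted p = 2.56e-07) and fell by 0.60 ± 0.10 in Psi KD (adjusted p = 0.00682). In these pairs Myc RNAi 1 was the highest library for both genes.

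CR45232 (2R, 16297449 to 16306695), the third of the 84 genes by counts, was at 66.3, 64.1 and 74.8 CPM in control discs, 52.6, 48.7 and 75.1 CPM in Psi KD discs and 197, 152 and 174 CPM in Myc KD discs. The Myc RNAi libraries were all above the rest (log2 fold change 1.35 ± 0.17, edgeR adjusted p = 0.000585), and Psi RNAi overlapped the controls. Atg9, an autophagy gene 216 bases away, had log2 fold changes of -0.04 and 0.03, and Nox, an NADPH oxidase gene 573 bases away on the other side, fell by 0.52 ± 0.07 in Psi KD (adjusted p = 0.00223) but had 0.06 ± 0.07 in Myc KD. CR32111 (3L, 12627934 to 12648280, 10 exons) was at 52.5, 48.1 and 47.5 CPM in control discs, 47.4, 49.6 and 48.1 CPM in Psi KD discs and 73.7, 69.0 and 68.3 CPM in Myc KD discs. It rose in Myc KD by 0.51 ± 0.05 (adjusted p = 7.33e-05), whereas caup, an Iroquois complex gene that patterns the wing 6135 bases away, had 0.03 ± 0.07.

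Antisense RNAs that rose in Myc KD were set beside the genes they overlap. CR46263, across CG3625, rose by 1.52 ± 0.17 (edgeR adjusted p = 0.00012), from 2.36 to 3.09 CPM in control discs to 6.86 to 8.88 CPM, and CG3625 rose by 0.51 ± 0.09 (adjusted p = 0.00256). CR46263 reached 5 CPM in Myc RNAi only, so it had to differ between groups to be chosen. CR45185, across the chitinase gene Cht6, was at 6.53, 6.57 and 7.44 CPM in control discs and 22.1, 13.9 and 14.0 CPM in Myc KD discs (log2 fold change 1.28 ± 0.20, adjusted p = 0.00105), and Cht6 rose by 0.46 ± 0.07 (adjusted p = 0.000946). Both pairs thus rose on both strands. CR42547, across mahj, whose product binds the polarity protein Lgl, was at 27.3, 27.5 and 29.4 CPM in control discs and 42.2, 36.1 and 45.0 CPM in Myc KD discs, while mahj was at 188, 179 and 195 CPM and then 124, 116 and 134 CPM. The log2 fold changes were 0.55 ± 0.10 (adjusted p = 0.00276, up to 0.0207 over the alternatives) and -0.59 ± 0.08 (adjusted p = 0.000597). CR45141 and AspRS, the aspartyl-tRNA synthetase gene, also differed in sign, at 0.72 ± 0.16 (adjusted p = 0.00793, 0.0121 with the replicate number as a block and up to 0.0382 over the alternatives) and -0.32 ± 0.03 (adjusted p = 8.37e-05). CR45141 lies 947 bases from vestigial (vg), the selector gene of wing identity, which was not called in Myc KD (0.17 ± 0.06, adjusted p = 0.0698). Smaller rises in Myc KD, all without a call in Psi KD, were those of the antisense RNA CR44291 (0.88 ± 0.16), the long non-coding RNAs CR45473 (0.81 ± 0.14) and CR30055 (0.73 ± 0.14), and the pseudogenes CR44383 (0.57 ± 0.13) and CR18275 (0.52 ± 0.10), which are named after their values were seen. Their adjusted p lay between 0.0016 (CR45473) and 0.00815 (CR44383). Over the alternatives the call of CR45473 held, while those of CR44383 (lost in 12 of 16, without every library but Psi RNAi 3, up to 0.0337, and 0.0146 with the replicate number as a block), CR18275 (lost in 5, up to 0.0208), CR44291 (in 4, up to 0.0146) and CR30055 (in 3, up to 0.0138) did not.

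CR44811, also called bsAS, runs opposite to blistered (bs), the fly serum response factor of wing intervein cells, and is the only CR gene that the study's text names. It was at 48.9, 60.1 and 55.1 CPM in control discs, 67.8, 70.3 and 71.5 CPM in Psi KD discs and 82.9, 84.3 and 79.7 CPM in Myc KD discs. The 3 groups were apart, with control lowest and Myc RNAi highest. The rise in Myc KD was 0.59 ± 0.07 (edgeR adjusted p = 0.000171) and held under every alternative. In Psi KD the log2 fold change of 0.35 ± 0.07 lay near the threshold (adjusted p = 0.0126 in edgeR), and it was called with DESeq2 (adjusted p = 0.000217), with the replicate number as a block (0.00917) and without control 2 (0.0079), while the highest adjusted p over the alternatives was 0.0517. The study, which used DESeq2, counts CR44811 among the long non-coding RNAs bound by Psi and differentially expressed in Psi KD. Psi RNAi lay above every control, and Psi RNAi and Myc RNAi were not called apart (-0.24 ± 0.07, adjusted p = 0.0256). The bs gene itself had 0.10 ± 0.07 and 0.18 ± 0.07, neither called.

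Of the 8 genes called higher in both knockdowns, CR45139 was at 12.5, 12.4 and 12.97 CPM in control discs, 23.8, 24.1 and 25.8 CPM in Psi KD discs and 18.9, 15.7 and 16.5 CPM in Myc KD discs. CR44807 was at 5.44, 5.69 and 5.61 CPM in control discs, 14.8, 14.7 and 14.2 CPM in Psi KD discs and 10.5, 7.80 and 9.83 CPM in Myc KD discs. In these genes Psi RNAi was above Myc RNAi and both were above the controls, without overlap. The log2 fold changes in Psi KD and Myc KD were 0.96 ± 0.08 and 0.43 ± 0.08 for CR45139 (edgeR adjusted p = 0.00013 and 0.00256, the latter up to 0.0192 over the alternatives) and 1.38 ± 0.12 and 0.75 ± 0.12 for CR44807 (adjusted p = 0.000161 and 0.000975). Their opposite-strand partners, uex, a gene of a magnesium transporter family, and CG4797, were not called in either. CR44390, opposite to Dark, the fly Apaf-1 of the apoptosome, went from 3.44 to 4.35 CPM in control discs to 6.48 to 7.41 CPM in Psi KD discs and 9.03 to 12.4 CPM in Myc KD discs, and Dark was not called (0.03 ± 0.05 and 0.13 ± 0.05). The log2 fold changes of CR44390 were 0.85 ± 0.16 in Psi KD (adjusted p = 0.00929) and 1.39 ± 0.16 in Myc KD (adjusted p = 0.000127), and the Psi KD call was lost in 10 of 16 alternatives, among them without every library but Myc RNAi 1 (up to 0.0568). CR44390 was below 5 CPM in every control and met the limit through the knockdowns. CR45759, 3052 bases from vvl, a POU-domain gene, had log2 fold changes of 0.99 ± 0.18 and 1.35 ± 0.18 (adjusted p = 0.0094 and 0.000422), and vvl 0.01 and 0.09. The Psi KD call of CR45759 was lost with total-count scaling and without any control, any Psi RNAi library or Myc RNAi 3 (up to 0.0684). CR43496 had 1.13 ± 0.13 and 0.64 ± 0.13, and CR44042 had 0.85 ± 0.09 and 0.37 ± 0.09. In Myc KD the call of CR43496 (adjusted p = 0.00529) was lost without control 1, control 3, Myc RNAi 1 or Myc RNAi 2 (up to 0.0331), and that of CR44042 (adjusted p = 0.00976) was lost without any 1 of the 9 libraries and with the replicate number as a block (0.0122), in 13 of 16 alternatives and up to 0.0424. CR46029, given above, rose in Myc KD to 8.31, 4.23 and 5.59 CPM (1.15 ± 0.24, adjusted p = 0.00505), a call lost in 8 of 16 alternatives (up to 0.0224), 6 of them a single library left out, and CR45923 completes the 8. Both comparisons share the 3 controls, so calls made in both are not independent. Of the 84 genes, 37 were called in either knockdown, 13 in both, 6 in Psi KD alone and 18 in Myc KD alone, and 47 in neither. The same split was not counted over all genes tested. Whether the 13 joint calls are more than the share over all genes is therefore not shown.

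Of the 4 falls in Myc KD, that of CR46123 is given above. CR44906, a pseudogene (2L, 19740839 to 19742506), was at 6.29, 6.32 and 6.56 CPM in control discs, 7.30, 7.89 and 6.78 CPM in Psi KD discs and 2.06, 1.63 and 1.56 CPM in Myc KD discs. Myc RNAi lay well below both other groups (log2 fold change -1.87 ± 0.16, edgeR adjusted p = 1.45e-05). Its neighbours CG10631, 310 bases away, and Nf-YB, 3750 bases away, were not called in either knockdown. CR42491 (X, 762615 to 763810) shares exon bases with RpL22, a gene of the large ribosomal subunit, on the same strand and spans a small nucleolar RNA gene, snoRNA:Psi18S-531. CR42491 was at 102, 109 and 109 CPM in control discs, 95.3, 88.9 and 87.4 CPM in Psi KD discs and 61.1, 62.1 and 60.9 CPM in Myc KD discs. It fell by 0.80 ± 0.05 in Myc KD (adjusted p = 1.21e-06), RpL22 by 1.23 ± 0.06 (adjusted p = 3.05e-07) and the small nucleolar RNA gene by 1.09 ± 0.08 (adjusted p = 5.47e-06). In Psi KD CR42491 was not called (-0.24 ± 0.05, adjusted p = 0.0117). CR43685 went from 24.4, 24.8 and 26.6 CPM to 19.5, 20.1 and 17.8 CPM in Myc KD discs (log2 fold change -0.40 ± 0.07, adjusted p = 0.00155), and its call was lost without control 3 and with scaling by total counts (-0.25, adjusted p = 0.0142).

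The gene with the highest level was CR42862 (3L, 224106 to 230964, 11 exons), at 724 CPM per kilobase of exon in the controls. It was at 3969, 3829 and 4122 CPM in control discs, 3307, 2978 and 4182 CPM in Psi KD discs and 6640, 4914 and 6177 CPM in Myc KD discs. Psi RNAi overlapped the controls, and Myc RNAi lay above both. Its log2 fold change was -0.19 ± 0.14 in Psi KD (edgeR adjusted p = 0.438) and 0.57 ± 0.14 in Myc KD (adjusted p = 0.0176, and 0.0057 with the replicate number as a block), and Psi RNAi was below Myc RNAi (-0.76 ± 0.14, adjusted p = 0.00416). The last call was lost in 7 of 16 alternatives (up to 0.0387), namely the fit of 2 groups and those without control 3, Psi RNAi 1, Psi RNAi 2, Myc RNAi 1, Myc RNAi 3 or both control 1 and Psi RNAi 1. CG33229, which shares exon bases with it on the same strand, was at 64.4 to 69.4 CPM in control discs, 51.5 to 53.5 CPM in Psi KD discs and 70.8 to 82.2 CPM in Myc KD discs. Without CR42862 the levels of the other 83 genes summed to 1842 ± 48.4 CPM in control discs, 1920 ± 28.6 CPM in Psi KD discs and 2116 ± 99.96 CPM in Myc KD discs (SD, n = 3). The hairpin RNA CR18854, second by counts, was at 548, 586 and 568 CPM in control discs, 642, 606 and 590 CPM in Psi KD discs and 479, 536 and 485 CPM in Myc KD discs, and neither knockdown was called against control. Between the knockdowns CR18854 was called higher in Psi RNAi (0.29 ± 0.05, adjusted p = 0.00245), a call lost in 4 of 16 alternatives (up to 0.0455). The annotation gives it no exons or strand, and it lies across IP3K1, an inositol phosphate kinase gene. The other hairpin RNA, CR32207, was at 45.5 to 49.0 CPM in control discs, 47.1 to 73.9 CPM in Psi KD discs and 21.4 to 32.5 CPM in Myc KD discs, with -0.82 ± 0.19 in Myc KD (adjusted p = 0.0116, and 0.00731 with the block). CR32207 was also called higher in Psi RNAi than in Myc RNAi (1.19 ± 0.19, adjusted p = 0.0017), a call lost in 2 of 16 alternatives (up to 0.016). CR18217, CR44690 and CR43432, which are also among the 12 genes with most counts, were not called against control.

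Psi RNAi and Myc RNAi were compared directly, since calls against shared controls do not show that the knockdowns differ. Of the 84 genes 17 were higher in Psi RNAi and 21 lower, which was 45.2% of them, beside 22.3% of all genes tested (12.8% higher and 9.53% lower) and 26.1% of genes of at least 5 CPM (15.3% and 10.7%). With scaling by total counts, which moves the median of all genes by -0.15 here, the split was 13 higher and 29 lower. Calls over all genes tested then went from 2060 to 2893. The median log2 difference, Psi RNAi minus Myc RNAi, was -0.18, against 0.01 over all genes tested. Among the 65 genes that reached 5 CPM in each group, 12 were higher and 17 lower. The groups did not overlap for 55 of the 84 genes (65.5%), beside 45.9% of all genes tested. With the replicate number as a block the calls changed for CR44677 (adjusted p from 0.021 to 0.00139), CR46268 (from 0.0125 to 0.00264), CR45102 (from 0.101 to 0.00944) and CR45973 (from 0.00638 to 0.0107). CR45923 was the most above Myc RNAi in Psi RNAi (log2 difference 3.83 ± 0.21, edgeR adjusted p = 8.12e-07), followed by CR44906 (2.06 ± 0.16) and CR43264 (1.42 ± 0.30, adjusted p = 0.00649, up to 0.0314 over the alternatives). CR43087 (-3.91 ± 0.13, adjusted p = 4.56e-08), CR43086 (-3.33 ± 0.12), CR43144 (-1.98 ± 0.17), CR45600 (-1.84 ± 0.12) and CR45517 (-1.69 ± 0.21) were the most below it. CR46123 was less low in Psi RNAi than in Myc RNAi (1.30 ± 0.25, adjusted p = 0.00341, up to 0.0196).

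Neighbouring CR genes did not always go together. The pseudogenes CR42653 and CR40190 lie 1754 bases apart on the same strand of 2R. CR42653 was at 5.44, 5.44 and 4.73 CPM in control discs, 8.71, 10.3 and 9.54 CPM in Psi KD discs and 2.001, 4.47 and 4.53 CPM in Myc KD discs, and CR40190 was at 11.4, 11.0 and 7.52 CPM, 9.89, 6.48 and 6.78 CPM, and 25.0, 22.1 and 21.7 CPM. CR42653 was thus highest in Psi RNAi and CR40190 in Myc RNAi. Between the knockdowns, the log2 difference was 1.38 ± 0.27 for CR42653 (edgeR adjusted p = 0.00361, up to 0.0167 over the alternatives) and -1.57 ± 0.20 for CR40190 (adjusted p = 0.000295). Against control, CR40190 rose in Myc KD (1.20 ± 0.20, adjusted p = 0.00152) and CR42653 was not called in either. CR42653 lay near 5 CPM in the controls and below it in Myc RNAi, and met the limit through Psi RNAi. It thus had to differ between groups to be chosen. Several genes without a call against control differed between the knockdowns in the same way, as with CR44334, which lies 2708 bases from the wing patterning gene rotund (rn). It was at 19.1 to 26.4 CPM in control discs, 32.2 to 34.04 CPM in Psi KD discs and 14.6 to 19.9 CPM in Myc KD discs (Psi RNAi minus Myc RNAi 0.92 ± 0.14, adjusted p = 0.000925). CR44955 had a difference of 1.35 ± 0.28 (adjusted p = 0.00458, up to 0.0193), but it reached 5 CPM in Psi RNAi only and so had to differ between groups to be chosen.

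For all 84 genes, the genes that overlap them and the nearest gene on each side were taken from the annotation. Of the 84 genes 43 overlapped a gene on the opposite strand, 15 overlapped one on the same strand and 30 overlapped none, and the median distance to the nearer neighbour without overlap was 387.5 bases. These made 243 pairs, of which 183 had a neighbour that could be tested, with 174 different neighbours. In Psi KD 11 neighbours were called (6.32%, beside the 4.07% of all genes), in Myc KD 47 (27.0%, beside 19.0%), and between the knockdowns 55 (31.6%, beside 22.3%). In Myc KD 68 of the tested pairs had a called CR gene. Both genes were called in 20 of these, 17 in the same direction and 3 in opposite directions. In Psi KD 39 tested pairs had a called CR gene, and both were called in 3, all in the same direction. The shares of such pairs with a called neighbour were close to the shares of all tested neighbours called. Across the 14 pairs that overlap on the same strand, the Pearson correlation of log2 fold changes was 0.67 in Psi KD and 0.86 in Myc KD. Across the 39 pairs on opposite strands it was -0.02 and -0.27. The values of a pair come from the same 9 libraries, and some neighbours occur in more than 1 pair. Read pairs that match both genes of a same-strand pair are counted for neither. These are therefore descriptions only.

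**Figure D4:**
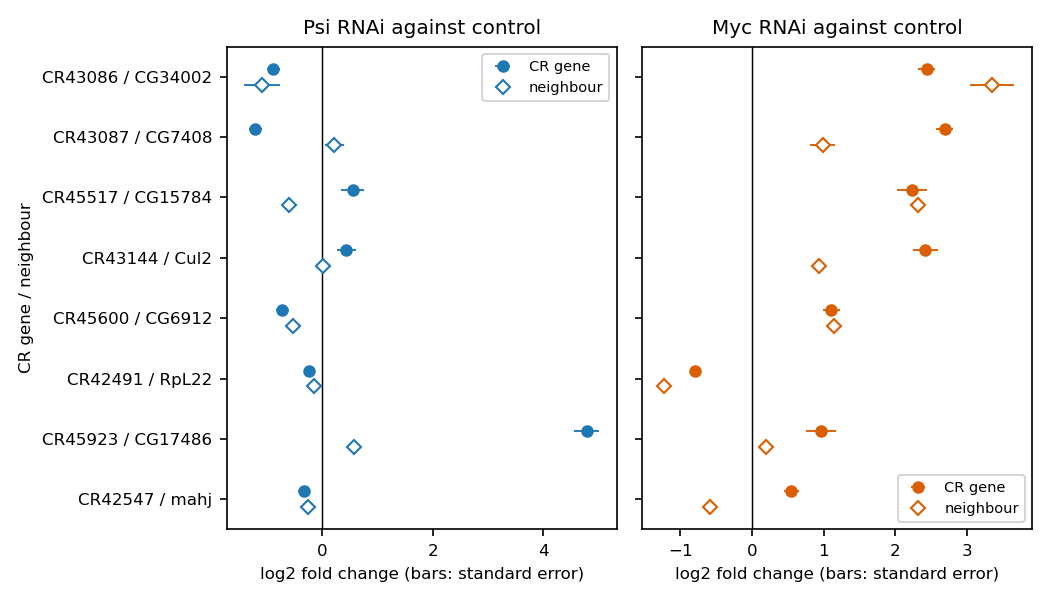
Log2 fold change against control (x axis, with its standard error) of 8 CR genes (filled) and a neighbour of each (open), in Psi RNAi on the left and Myc RNAi on the right, with pairs chosen from the text after their values were seen. In Myc RNAi the CR gene and its neighbour lie on the same side of 0 in 7 of the pairs drawn, and CR42547 (0.55) and mahj (-0.59) lie on opposite sides.

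The median coefficient of variation of these genes between libraries was 8.89% in control discs, 12.9% in Psi KD discs and 13.9% in Myc KD discs. In 1 gene, CR43283, the highest library of a group was more than 3 times the lowest. CR43283, also named cherub and known from neural stem cells of the larval brain, is named here after its values were seen. It was at 7.26, 54.01 and 0.763 CPM in control discs, 7.77, 3.84 and 6.05 CPM in Psi KD discs and 9.07, 6.73 and 1.63 CPM in Myc KD discs. The high value was in control 2, where the 9 neuron and glia markers, of which none was at 0 in any library, also had their highest sum (132 CPM, against 74.7 to 110 CPM in the other libraries). What part this had in the value was not tested, and CR43283 was not called. CR31044, which holds the microRNA genes mir-279 and mir-996 and was likewise picked after its values were seen, was at 13.5, 25.4 and 14.9 CPM in control discs, 22.6, 14.4 and 16.0 CPM in Psi KD discs and 17.3, 17.0 and 15.03 CPM in Myc KD discs, and was not called.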

How the data were processed

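Wing disc RNA was sequenced as stranded poly(A) libraries in 3 control, 3 Psi RNAi and 3 Myc RNAi samples, grouped by their labels. The deposited counts, 1 whole number of read pairs for each gene, were made by the authors with TopHat2 2.1.1 and HTSeq 0.6.1 after FastQC 0.11.6 (versions from the submitters' processing notes) on a release 6 FlyBase annotation, counting the reverse strand. From the 2 deposited tables of comparisons with control (DESeq2 1.12.0) only gene symbols were taken. Their fold changes, p-values and normalized counts, and the 5 splicing tables of Psi RNAi, with 48 columns of values per library in all, were not used. The 5 summary lines of each count table were left out, of which pairs aligned to more than one place made up 9.52% to 15.8% of the pairs.

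Counts were fitted with edgeR 4.0.16 in R 4.3.3 (TMM, filterByExpr, robust quasi-likelihood test, no covariate, all 9 libraries in 1 fit) and adjusted by Benjamini-Hochberg over 9235 genes, and the call threshold of 0.01 is the level the study used. The biological coefficient of variation was 23.0%. Separate crosses are not stated for the pools, and the p-values cover only the spread between pools, part of it perhaps technical. Correlations of log values between libraries of a group were 0.965 to 0.987, and no pair agreed within sampling noise (lowest chi-square per degree of freedom 18.1). Control and Myc RNAi libraries with the same number deviated together from their group means (r = 0.309, 0.232 and 0.442 across genes, against -0.356 to 0.149 for different numbers). They may be paired, which rests on the data alone. The main fit has no block, so its p-values and counts use no pairing in any comparison. Values with the replicate number as a block are given where they change a call named in the text. Types, positions and neighbours come from Ensembl release 115 and a RefSeq gene table of the same assembly, which gave the same start and end for 83 genes. No sequence was used, so promoter motifs were not searched.

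The members and lists were chosen with earlier results of these data known. The text names, in each contrast, the 10 rises and 10 falls of largest fold among genes called, the 12 genes of highest CPM, 3 on each side of the limit, CR44811, genes called in opposite or the same directions in both knockdowns, and genes that overlap or adjoin them. Other settings tried were DESeq2 1.42.0, RLE and total-count scaling, no filter, fits of 2 groups, the replicate block, each library left out, control 1 and Psi RNAi 1 left out together, a threshold of 0.05, and other membership rules. The fit was tested on simulated counts.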

Additional observations from a re-analysis of the deposited data

How the results depend on the processing

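No call changed direction under any alternative. Of the calls, 5 of 19 in Psi KD, 17 of 31 in Myc KD and 23 of 38 between the knockdowns held under all 16 alternatives of the fit, and 9, 18 and 25 held without any 1 library. In Psi KD the count of CR genes called was 19, and it was 30 with DESeq2 (which called 873 genes in all, in place of 376), 32 at an adjusted p below 0.05, 11 of 41 genes at a limit of 10 CPM, and 10 to 18 without 1 library. In Myc KD it was 31, with 20 of 41 at 10 CPM and 20 to 31 without 1 library, and between the knockdowns it was 38, with 24 of 41 at 10 CPM and 29 to 39 without 1 library. Without control 1 and Psi RNAi 1, the libraries with the highest sums of fat body markers, the counts were 5, 20 and 24. Over all genes tested, the calls in Psi KD were 376, and 150 to 350 without 1 library, 82 without those 2 libraries and 975 at 0.05. In Myc KD they were 1754, and 2732 with total-count scaling, 1219 to 1725 without 1 library, 1215 without those 2 libraries and 2812 at 0.05. Between the knockdowns they were 2060, and 1393 to 1862 without 1 library, 1451 without those 2 libraries and 3215 at 0.05. When genes that overlap a CR gene were taken alone, a setting chosen after seeing the data, 4, 14 and 16 neighbours of 51 were called, in place of 11, 47 and 55 of 174. As shares of the neighbours tested these were close to those of the full set. With the replicate number as a block the counts were 19, 32 and 40, beside 421, 1894 and 2173 over all genes tested. Control and Psi RNAi libraries with the same number also deviated together (r = 0.304, 0.0901 and 0.212, against -0.288 to 0.0358 between libraries of different number). Whether they are paired is therefore as open as for control and Myc RNAi. In Psi KD the block lost CR42549 (adjusted p = 0.0149) and CR45600 (0.0173) and gained CR44811 (0.00917) and CR44003 (0.00566). In Myc KD it also lost CR44383 (0.0146) and gained CR44677 (0.00511) and CR31032 (0.00537). The cause of these changes was not tested.

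Genes of 5 to 10 CPM, 43 of the 84, rest on few counts, as low as 11 in a library, and a missed call there does not show that a level was unchanged. Pseudogenes resemble other genes, and read pairs with several alignments were not counted, so their levels are uncertain. Hairpin stock and knockdown cannot be told apart.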

Other observations

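Non-coding genes outside the rule, most of them with a name in place of a CR number, are given for comparison. The hosts of small nucleolar RNAs Uhg1, Uhg2, Uhg3, Uhg4, Uhg5 and Uhg8 were lower in Myc KD, with log2 fold changes from -1.54 (Uhg4) to -0.96 (Uhg5), edgeR adjusted p from 9.84e-07 (Uhg2) to 0.000512 (Uhg1), and libraries below every control. Uhg4 was at 43.0, 43.5 and 39.3 CPM in control discs, 41.0, 38.8 and 35.1 CPM in Psi KD discs and 14.2, 17.0 and 11.99 CPM in Myc KD discs. In Psi KD none of these 6 was called, and Uhg3 came nearest (-0.55 ± 0.11, adjusted p = 0.0165). Uhg7 was not called in Myc KD (-1.37 ± 0.37, adjusted p = 0.0202). The heat-shock RNA Hsromega was lower in Psi RNAi than in Myc RNAi (-0.72 ± 0.10, adjusted p = 0.000468) and was not called against control in Psi KD (-0.42 ± 0.10, adjusted p = 0.0272) or Myc KD (0.30 ± 0.10, adjusted p = 0.0461). The roX1 and roX2 RNAs, let7C, RNaseMRP:RNA and RNaseP:RNA, and CR43334, a CR gene below the limit (2.18 CPM), were not called in any comparison, and yar, bxd, iab-8, acal, sphinx and CRG had too few counts to test.

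Among the 301 CR genes below 5 CPM that passed the filter, 20 were called in Psi KD (6.64%, 17 of them higher, beside 4.07% of all genes tested), 23 in Myc KD (7.64%, 19 higher, beside 19.0%) and 43 between the knockdowns (14.3%, beside 22.3%).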
